A study of Mus musculus with 38 samples.

Results

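The regions described here were the genomic copies of RLTR9 and RLTR17, long terminal repeats (LTRs) of mouse endogenous retroviruses of the ERVK group. They were picked by name, with earlier results of these data known, from a table of transposable element copies. A copy was taken where its group was ERVK and its family name was RLTR9 or RLTR17, with or without a letter suffix. This gave 68818 copies of 3793386 in the table, in 17 families of 1225. RLTR9 held 5691 copies in 13 families, and RLTR17 held 63127 copies in 4 families. RLTR17B_Mm alone held 60375 copies, or 87.7% of all, so most values below are given per family, or for copies without RLTR17B_Mm.

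The study asked how proteins of the nuclear periphery hold chromatin in mouse embryonic stem cells. CUT&RUN, a method that brings a nuclease to an antibody so that DNA near the antibody's target is cut free, was run against LAP2B, an inner nuclear membrane protein that binds lamins and chromatin. LAP2B was mapped in wild type (WT) cells, in cells without the lamin B receptor (LBRKO), in TKO cells, which lack LMNA, LMNB1 and LMNB2, and in QKO cells, which lack these lamins and the receptor. Each genotype was sampled as naive mESCs and as epiblast-like cells (EpiLCs), with 3 libraries per group, and the lamin LMNB1 and a non-specific antibody (IGG) were mapped in WT only.

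Naive cells were grown without serum with LIF and the inhibitor pair known as 2i, and EpiLCs were made from them with FGF and activin A. WT and TKO cells were separate lines from littermates. The LBRKO cells carried frameshift deletions in Lbr made in the WT line. The QKO cells were a single clone made from TKO cells, with a frameshift and an in-frame deletion in Lbr. By karyotype TKO cells carried trisomy 8 and in part had lost the Y chromosome. Part of the WT cells carried trisomy 6 and 8 or had lost the Y chromosome. The Y chromosome holds 1.81% of the copies given a chromosome, which was inferred as described below. Libraries of a group therefore measure spread between samples of the same line, which may be technical, and not between lines or clones. The series also has 2 H3K9me3 samples, not used here.

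An LTR holds the promoter and the regulatory sequence of a retrovirus, and most LTRs in the genome are solitary copies left after the internal part was lost by recombination. RLTR9 and RLTR17 are known in mouse embryonic stem cells as LTRs bound by pluripotency factors such as OCT4, SOX2, ESRRB and KLF4, and some copies act there as enhancers. LMNB1 marks chromatin at the nuclear lamina, where mostly inactive regions lie, and in naive cells LAP2B does so as well. In WT EpiLCs the study found LAP2B signal both inside and outside lamina regions, by comparison with LMNB1. It therefore did not use LAP2B to mark lamina contact there, and the EpiLC values of LAP2B below are not a measure of lamina contact alone. No pluripotency factor was mapped in these libraries, so the regulatory role of the copies was not measured.

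Sequences of RLTR9D, RLTR9E and RLTR17 are shown first, because LAP2B over RLTR9D and RLTR9E was among the values that fell most from naive cells to EpiLCs, while RLTR17 fell by only 0.06 on the log2 scale. The files give no positions of copies. A copy was placed where its reads equalled those of an annotated gene in all 36 libraries, which puts both in the same bins of 1 kb of GRCm39, and 338 copies of RLTR9 and RLTR17 could be placed so. Within such bins, the stretch shared by 2 placed copies of a family was cut out of the genome. The positions of these stretches are thus matches of sequence, not entries of a repeat annotation. For other copies only a chromosome was inferred, where the placed copies before and after in deposited order lay on the same one. With the placed copies, 68315 of the 68818 copies were given a chromosome. Each run below is 300 bases, 5′ to 3′. In RLTR9 the capitals ATTGTT mark the SOX core on the other strand. In the majority sequence of RLTR9D the capitals TGACCTT mark the ESRRB motif on the other strand. In that of RLTR17 the capitals mark 2 overlapping SOX motifs on the other strand. The letters of each motif are given with the counts below.

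The pair of RLTR9D copies were 72.3% identical. RLTR9D_dup284 was taken from the plus strand of chr7:33685021-33685320, where GENCODE M39 has no gene. RLTR9D_dup667 came from the plus strand of chr15:81852003-81852302, of which 149 bases are exons of the lncRNA Gm63381.
RLTR9D_dup284: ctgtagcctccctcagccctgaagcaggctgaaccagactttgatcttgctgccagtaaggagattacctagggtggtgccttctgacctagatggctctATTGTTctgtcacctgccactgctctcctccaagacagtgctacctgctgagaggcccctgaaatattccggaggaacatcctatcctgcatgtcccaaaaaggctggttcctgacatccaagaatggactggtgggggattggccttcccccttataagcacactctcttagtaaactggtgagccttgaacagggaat
RLTR9D_dup667: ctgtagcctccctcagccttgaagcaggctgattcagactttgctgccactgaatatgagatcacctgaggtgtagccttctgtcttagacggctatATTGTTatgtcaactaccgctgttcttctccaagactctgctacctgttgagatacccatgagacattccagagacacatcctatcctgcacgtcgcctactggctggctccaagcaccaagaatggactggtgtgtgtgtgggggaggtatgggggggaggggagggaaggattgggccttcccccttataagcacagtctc

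The RLTR9E pair were 78.7% identical. RLTR9E_dup1119 was taken from the minus strand of chr15:82432275-82432574, in an intron of the pseudogene Gm28023. RLTR9E_dup510 came from the plus strand of chr7:106587893-106588192, in an intron of the olfactory receptor pseudogene Or6i1-ps1, which lies on the other strand.
RLTR9E_dup1119: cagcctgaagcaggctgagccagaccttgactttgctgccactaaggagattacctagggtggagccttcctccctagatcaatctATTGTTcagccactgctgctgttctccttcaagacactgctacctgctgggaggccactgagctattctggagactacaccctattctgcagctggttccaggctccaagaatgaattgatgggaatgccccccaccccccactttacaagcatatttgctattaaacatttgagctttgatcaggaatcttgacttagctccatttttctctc
RLTR9E_dup510: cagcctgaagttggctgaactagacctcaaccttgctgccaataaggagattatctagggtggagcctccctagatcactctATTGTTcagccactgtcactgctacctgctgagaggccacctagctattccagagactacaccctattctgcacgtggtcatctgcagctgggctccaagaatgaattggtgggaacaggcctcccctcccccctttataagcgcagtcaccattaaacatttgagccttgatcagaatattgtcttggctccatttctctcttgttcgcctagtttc

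The RLTR17 pair were 79.9% identical. RLTR17_dup112 was taken from the plus strand of chr1:181078825-181079124, of which 285 bases are an exon of the lncRNA Gm70206. RLTR17_dup1249 came from the plus strand of chr19:30163264-30163563, all of it within an exon of the lncRNA Gm56631.
RLTR17_dup112: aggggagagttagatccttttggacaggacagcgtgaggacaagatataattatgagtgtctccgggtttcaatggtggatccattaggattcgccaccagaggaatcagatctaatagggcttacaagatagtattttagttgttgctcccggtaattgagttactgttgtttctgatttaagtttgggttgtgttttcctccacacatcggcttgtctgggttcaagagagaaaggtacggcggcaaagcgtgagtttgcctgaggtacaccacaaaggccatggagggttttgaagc
RLTR17_dup1249: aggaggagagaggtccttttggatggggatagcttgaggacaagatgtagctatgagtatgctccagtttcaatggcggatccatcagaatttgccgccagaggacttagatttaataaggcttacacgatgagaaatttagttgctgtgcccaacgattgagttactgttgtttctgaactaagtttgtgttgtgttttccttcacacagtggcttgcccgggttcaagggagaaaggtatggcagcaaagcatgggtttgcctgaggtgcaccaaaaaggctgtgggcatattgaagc

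These stretches were then searched for in the genome, and matches covering at least 80% of the query were kept, which gave 862 matches for RLTR9D, 1205 for RLTR9E and 1014 for RLTR17, against 761, 1266 and 1263 copies in the table. A majority base was taken at each position over 537 matches of RLTR9D and 676 of RLTR17, those of the stretch matched most often. Each place in the genome counted for its best-scoring stretch. Families other than RLTR9D, RLTR9E and RLTR17 had no stretch, so matches can belong to them. Median identity to the stretch was 75.7% for RLTR9D and 75.9% for RLTR17 matches. The runs below thus give the most frequent bases of the matches, not what all copies of a family share. The RLTR9D run carries the ESRRB motif, although neither placed RLTR9D copy above does.
RLTR9D majority: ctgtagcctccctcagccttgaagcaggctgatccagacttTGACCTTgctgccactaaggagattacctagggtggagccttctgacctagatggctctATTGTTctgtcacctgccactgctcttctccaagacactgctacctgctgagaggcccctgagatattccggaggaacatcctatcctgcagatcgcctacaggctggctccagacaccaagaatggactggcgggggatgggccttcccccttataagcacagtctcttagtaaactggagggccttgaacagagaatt
RLTR17 majority: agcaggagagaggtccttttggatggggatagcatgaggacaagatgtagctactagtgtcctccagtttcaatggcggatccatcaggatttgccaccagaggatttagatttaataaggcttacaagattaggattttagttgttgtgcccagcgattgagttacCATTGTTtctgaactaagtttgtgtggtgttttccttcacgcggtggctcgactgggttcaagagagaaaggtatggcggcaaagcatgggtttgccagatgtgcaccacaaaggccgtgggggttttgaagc

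Each motif was searched on both strands in the first and the last 300 bases of the matches and in 32851 RefSeq promoters of the same length (GRCm39). The searched stretches were 371 to 483 bases long, so the first and the last 300 bases of a match overlap and a site can lie in both. AAGGTCA was present in the first 300 bases of 45.0% of RLTR9D and 43.6% of RLTR9E matches, and in 4.72% of promoters. In the last 300 bases it was in 16.6% of RLTR9D and 1.16% of RLTR9E matches. For RLTR17 the share was 1.08% in the first and 5.23% in the last 300 bases. AACAAT, which was added after the sequences were seen, was in the first 300 bases of 73.9% of RLTR9E and 44.2% of RLTR9D matches and in the last 300 bases of 46.5% of RLTR17 matches, against 10.7% of promoters. In the other of these overlapping windows it was in 38.3% of RLTR9E, 33.9% of RLTR9D and 15.3% of RLTR17 matches. ACAATG, which overlaps it by 5 bases, was in the last 300 bases of 41.2% of RLTR17 matches and in 12.6% of promoters. In the first 300 bases it was in 12.8% of RLTR17, 9.05% of RLTR9E and 3.36% of RLTR9D matches, and in the last 300 in 10.3% of RLTR9E and 3.02% of RLTR9D matches. The POU octamer ATGCAAAT and the KLF motif GGGTGTGG were in at most 0.789% and 2.66% of matches of these families, below the 1.74% and 3.56% of promoters. A match describes letters in a window and does not show that a factor binds.

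RLTR17B_Mm was described by the bins that hold it. Of 176 bins of 1 kb that held a placed RLTR17B_Mm copy, 98 (55.7%) contained an alternating run of at least 30 bases made of TA and TG steps or of their complement. The share was 9.19% over all 2649698 bins of the genome without gaps. In the 70 bins not placed through a miRNA gene it was 50%. Whether the copies themselves or their neighbours carry the runs could not be read from the files.

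The deposited value of a copy is spike-in scaled RPKM summed over the 1 kb bins the copy touches. Neighbouring copies can share all their bins, and 44438 of the 68818 copies (64.6%) had the same reads as another copy in all 36 libraries. Recovered reads over the whole table came to 37407387 to 131279154 per library, counting a read once for each copy whose bins hold it, with 8 to 29 reads at the median copy. Values are given on a pair of scales. On the relative scale each library is divided by its median family, so that 1 is the level of the median family. On the spike-in scale values are as deposited. A family value is the mean over its copies. Because values are not divided by length, levels were compared between families only as ratios over IGG.

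In naive WT cells, RLTR9 families stood higher over IGG in LAP2B and LMNB1 than the median family did. Each library was first divided by its median family. A ratio of 1 is therefore about the level of the median family over IGG, and not the level of the background itself. The ratio of LAP2B to IGG on the relative scale was 1.38 for RLTR9D2, 1.37 for both RLTR9D and RLTR9A3A, 1.34 for RLTR9C, 1.33 for RLTR9E and 1.32 for RLTR9A4. RLTR17 was at 1.12, RLTR17C_Mm at 1.04 and RLTR17B_Mm at 0.929, the lowest of the 17. The median over the 17 families was 1.24, beside 1.00 over all 1225 families. All 3 LAP2B libraries lay above all 3 IGG libraries in 16 of the 17 families, against 30.7% of all families, and 10 of the 17 were among the highest 10% of families. RLTR9D2 ranked 10th, RLTR9D 12th and RLTR9A3A 13th of 1225. The ratio of LMNB1 to IGG in naive cells was highest for RLTR9A4, at 1.33, RLTR9A3A, at 1.31, and RLTR17D_Mm, at 1.30. For LMNB1, 15 of the 17 families lay above IGG without overlap, against 31.9% of all families.

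**Figure D1:**
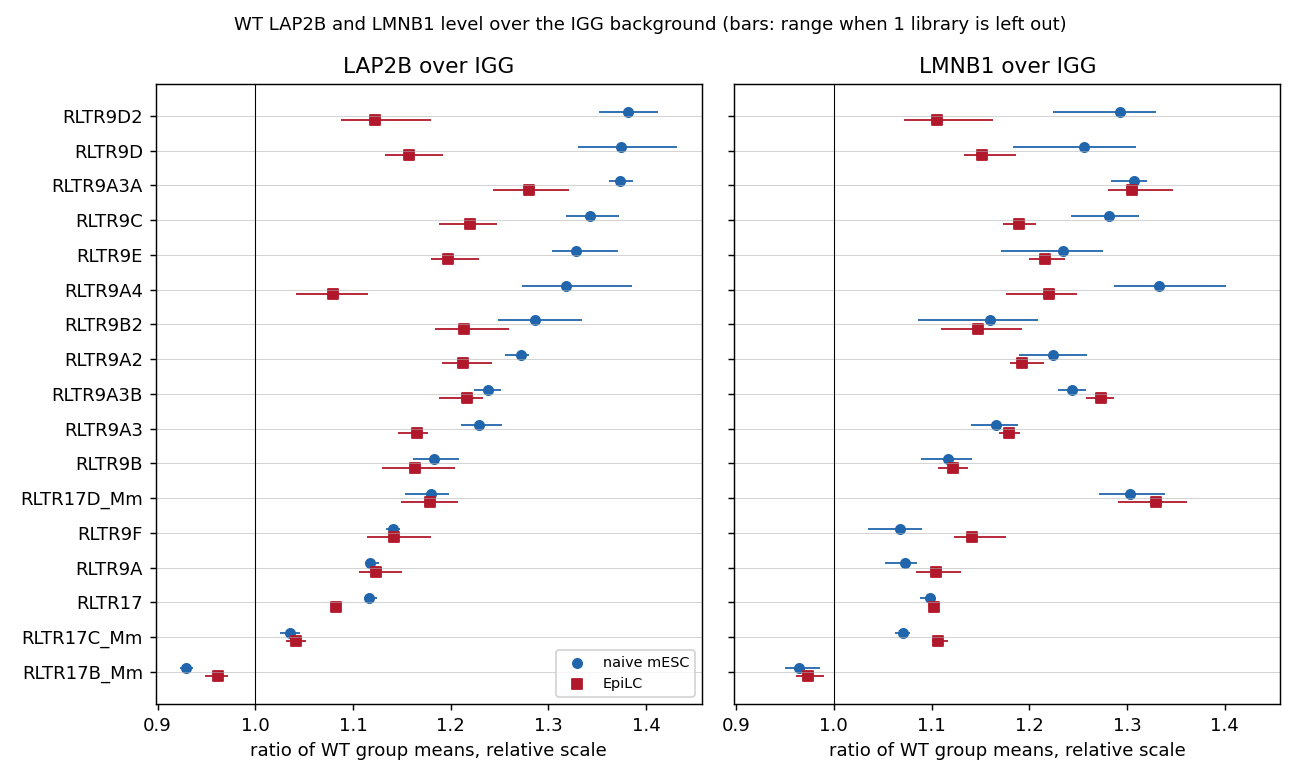
Ratio of the WT group means of LAP2B and of LMNB1 to IGG for each RLTR9 and RLTR17 family (relative scale, no unit) in naive mESCs and EpiLCs, with bars for the range when any 1 library is left out. RLTR9D, RLTR9D2 and RLTR9E lie between 1.33 and 1.38 in naive cells and between 1.12 and 1.20 in EpiLCs for LAP2B, and RLTR17B_Mm lies below 1 on this scale.

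In EpiLCs the LAP2B ratio was highest for RLTR9A3A, at 1.28, and 14 of 17 families lay above IGG without overlap, against 25.7% of all families. RLTR9D was at a ratio of 1.16, RLTR9D2 at 1.12, where it overlapped IGG, and RLTR9E at 1.20. The LMNB1 ratio of RLTR9D went from 1.26 to 1.15, that of RLTR9D2 from 1.29 to 1.11 and that of RLTR9E from 1.23 to 1.22. For LMNB1 14 of 17 families lay above IGG without overlap, against 33.3% of all families. These ratios are descriptions with no test. RLTR17B_Mm crossed 1 for LMNB1 in both stages and for LAP2B in EpiLCs when libraries were divided by their mean over copies.

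The fall of RLTR9D, RLTR9D2 and RLTR9E from naive WT cells to EpiLCs was among the steepest of all families. RLTR9D held relative LAP2B of 2.01, 1.88 and 1.99 in the naive libraries and 1.41, 1.27 and 1.37 in the EpiLC libraries. The stages did not overlap, and the log2 change was -0.51 ± 0.05 (SE), with a limma adjusted p of 1.28e-05, the 5th lowest of 1225 families. RLTR9D2 held 2.01, 2.05 and 2.08 in naive cells and 1.55, 1.47 and 1.51 in EpiLCs, a log2 change of -0.41 ± 0.06 (limma adjusted p = 0.000132). RLTR9E held 1.96, 1.86 and 1.93 against 1.49, 1.38 and 1.50, a log2 change of -0.37 ± 0.06 (limma adjusted p = 0.000541), although its call was lost when the median over copies was used, at -0.26. RLTR9A4, RLTR9B, RLTR9C and RLTR17 also fell, by 0.26, 0.18, 0.14 and 0.06 on the log2 scale.

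In all, 7 of 17 families fell and 0 rose, against 13% of all families that fell and 14.2% that rose. The median over the 17 families was -0.10, beside 0.00 over all families. RLTR9A3A, one of the highest families over IGG in naive cells, moved by -0.08 ± 0.04 and was not called. RLTR17B_Mm was at 0.02 ± 0.02. Dividing by the mean over families shifted the median family by -0.34 and called all 17 families lower, and that scaling, as well as the mean over copies, turned the sign of RLTR17B_Mm and RLTR9A, neither of which was called. The 7 calls became 3 with the median over copies, 3 without EpiLC WT replicate 2, 4 without naive WT replicate 1, 12 without EpiLC WT replicate 1 and 13 when libraries were divided by the mean over copies.

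LMNB1 and IGG values over RLTR9D, RLTR9D2 and RLTR9E were also lower in EpiLCs, but did not pass the test. LMNB1 over RLTR9D was 1.66, 2.00 and 1.72 in naive cells and 1.34, 1.31 and 1.38 in EpiLCs, without overlap, a log2 change of -0.39 ± 0.07 with a limma adjusted p of 0.0689. LMNB1 changed by -0.34 ± 0.07 over RLTR9D2 and by -0.25 ± 0.06 over RLTR9E. RLTR9D had the 2nd and RLTR9D2 the 5th lowest LMNB1 change of 1225 families. None of the 17 families passed the test for LMNB1 with limma in these 6 libraries, where 0.816% of all families were called lower and 0.0816% higher. The mean over families as divisor shifted the median family by -0.30 and called all 17 lower. For LMNB1 edgeR on recovered reads called 2 of the 17, against 1.31% of all families, and limma gave 6 of them an unadjusted p under 0.05. IGG changed by -0.27 ± 0.06 over RLTR9D, -0.23 ± 0.04 over RLTR9E and -0.13 ± 0.06 over RLTR9D2. The IGG changes of RLTR9D and RLTR9E were the 14th and 19th lowest of 1225 families, and their stages did not overlap. For IGG limma called 0 of 17, with 4 at an unadjusted p under 0.05, and edgeR called 0. Of all families limma called 0.163% lower and 0% higher, and edgeR called 0.245%. For both LMNB1 and IGG, the share of all families at an unadjusted p under 0.05 is not given here. The part of the background in the fall of LAP2B was not tested. Over all 17 families the median ratio of LAP2B to IGG was 1.24 in naive cells and 1.16 in EpiLCs, also without a test.

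**Figure D2:**
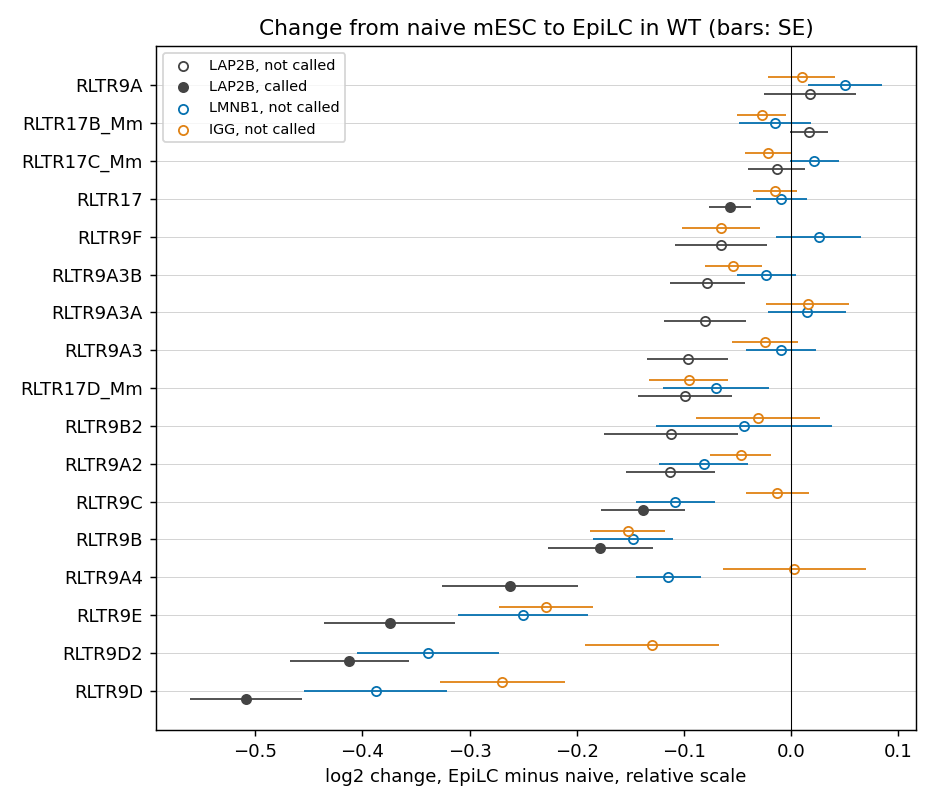
Log2 change from naive WT mESCs to WT EpiLCs on the relative scale for LAP2B, LMNB1 and IGG in each family, with bars of 1 SE from limma. RLTR9D, RLTR9D2 and RLTR9E are the lowest in LAP2B, at -0.51, -0.41 and -0.37, and IGG over them lies below 0 as well, at -0.27, -0.13 and -0.23.

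In naive LBRKO cells, relative LAP2B over most RLTR9 and RLTR17 families was lower than in WT. RLTR9A3A changed most. Its naive WT libraries held 1.78, 1.75 and 1.72, its LBRKO libraries 1.07, 1.13 and 1.14, a log2 change of -0.60 ± 0.04 (limma adjusted p = 2.56e-10), the 18th lowest change of 1225 families. RLTR9C changed by -0.39 ± 0.04, RLTR9A3B by -0.35 ± 0.03, RLTR9F by -0.35 ± 0.04 and RLTR9B2 by -0.34 ± 0.06. RLTR9D, RLTR9D2 and RLTR9E changed by about the same amount, at -0.26 ± 0.05, -0.24 ± 0.06 and -0.25 ± 0.06. RLTR17D_Mm changed by -0.30 ± 0.04 and RLTR17 by -0.09 ± 0.02.

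Of the 17 families, 15 were lower and 0 higher in naive LBRKO, against 41.5% and 31% of all families, and only RLTR9B and RLTR17B_Mm were not called. The median was -0.25, beside -0.03 over all families. Dividing libraries by the mean over families shifted the median family by 0.15, left 2 of the 15 calls and turned RLTR17, RLTR17C_Mm and RLTR9A to between 0.01 and 0.06. IGG was mapped in WT only, so the background over these families in the mutants was not measured.

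**Figure D3:**
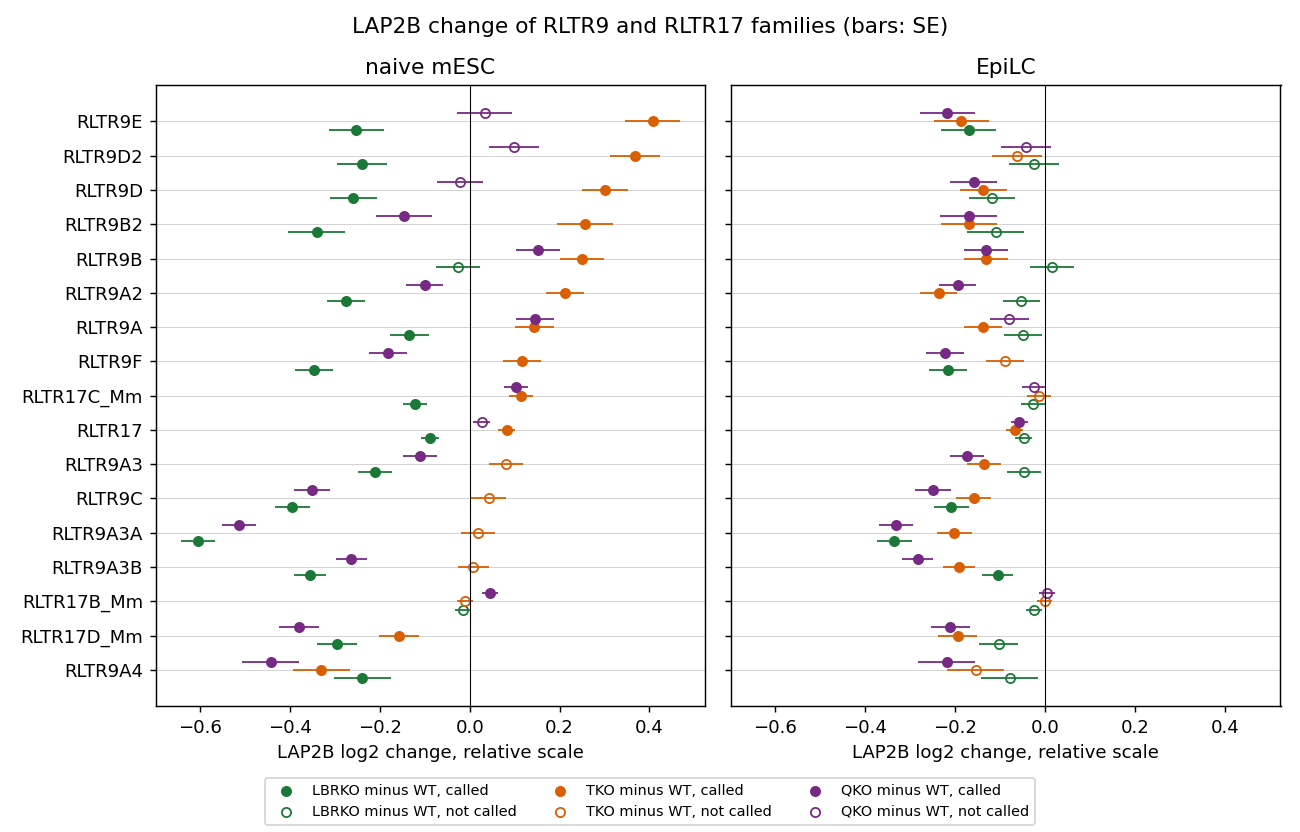
Log2 change of relative LAP2B against WT of the same stage for the 17 families in LBRKO, TKO and QKO, naive mESCs and EpiLCs in separate panels, with bars of 1 SE from limma; filled points passed the test. In naive TKO cells RLTR9E, RLTR9D2 and RLTR9D reach 0.41, 0.37 and 0.30, and in EpiLCs all 17 TKO points lie below 0.

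In naive TKO cells, RLTR9E, RLTR9D2 and RLTR9D held more relative LAP2B than in WT. RLTR9E held 2.75, 2.29 and 2.71 in TKO libraries against 1.96, 1.86 and 1.93 in WT, a ratio of 1.33 (log2 change 0.41 ± 0.06, limma adjusted p = 3.78e-05). RLTR9D2 held 2.84, 2.43 and 2.74 against 2.01, 2.05 and 2.08, a ratio of 1.29 (0.37 ± 0.06, limma adjusted p = 4.25e-05). RLTR9D held 2.58, 2.22 and 2.53 against 2.01, 1.88 and 1.99, a ratio of 1.23 (0.30 ± 0.05, limma adjusted p = 0.000139). The groups did not overlap in any of these, and TKO replicate 2 was the lowest of its group in each. RLTR9E ranked 34th, RLTR9D2 51st and RLTR9D 77th of 1225 families. The ratios in this paragraph come from the log2 changes, which hold the pseudocount given under processing, and are not ratios of the printed values.

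These increases were relative to the median family of each library. The 3 families stayed above 0 under each relative scaling tried, while on the spike-in scale all 17 families were below 0, as given further on. Division by the mean over families, which shifted the median family by -0.27, took the 3 to 0.12, 0.08 and 0.01 and ended their calls. TKO cells carry an extra chromosome 8, and without copies on chromosomes 6 and 8 the log2 changes were 0.41, 0.30 and 0.32 for RLTR9E, RLTR9D2 and RLTR9D. RLTR9B2 and RLTR9B were 0.26 ± 0.06 and 0.25 ± 0.05 higher, and RLTR9A2 was 0.21 ± 0.04 higher. RLTR9A3A, the family most reduced in LBRKO, held 1.84, 1.67 and 1.81 in TKO and overlapped WT. RLTR9A4 and RLTR17D_Mm were lower, at -0.33 ± 0.06 and -0.16 ± 0.04.

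In all, 10 of the 17 families were higher and 2 lower in naive TKO, against 33.1% and 20.8% of all families, with a median of 0.11 beside 0.02 over all families. Of the 10, RLTR17 turned to -0.03 when libraries were divided by the mean over copies. RLTR17, RLTR17C_Mm, RLTR9A, RLTR9A2, RLTR9B, RLTR9B2 and RLTR9F turned to between -0.20 and -0.03 when they were divided by the mean over families, which called 0 families higher and 7 lower. The mean over copies as divisor called 6 higher and 5 lower, and the median over copies as family value 5 higher and 1 lower.

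**Figure D4:**
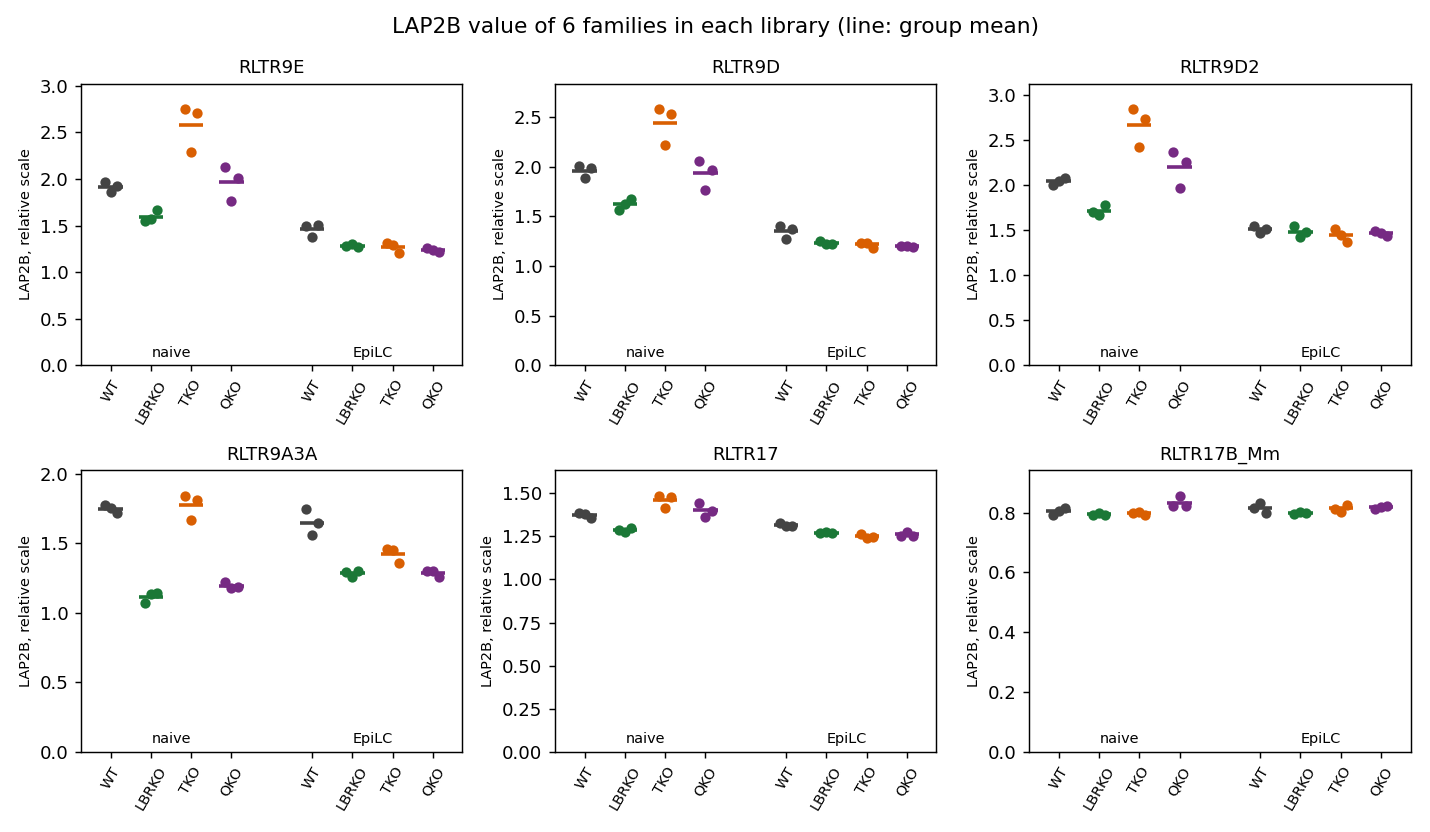
Relative LAP2B (1 is the median family of the library) in each of the 3 libraries of each genotype and stage for RLTR9E, RLTR9D, RLTR9D2, RLTR9A3A, RLTR17 and RLTR17B_Mm, with a line at the group mean. RLTR9E lies between 2.29 and 2.75 in naive TKO libraries and between 1.20 and 1.31 in EpiLC TKO libraries. RLTR9A3A lies below WT in LBRKO and QKO at both stages and in TKO in EpiLCs.

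In naive QKO cells the families split. RLTR9A3A held 1.22, 1.18 and 1.19, below the WT libraries at 1.72 to 1.78, a log2 change of -0.51 ± 0.04 (limma adjusted p = 5.26e-10). RLTR9A4, RLTR17D_Mm, RLTR9C and RLTR9A3B were lower by -0.44, -0.38, -0.35 and -0.26. RLTR9E held 2.13, 1.76 and 2.01, which overlapped WT, and its change was 0.03 ± 0.06. RLTR9D and RLTR9D2, at -0.02 ± 0.05 and 0.10 ± 0.06, did not pass the test either. In all, 9 of 17 families were lower and 4 higher, against 42.2% and 38.1% of all families, and the median was -0.10 beside -0.02. The 4 that were higher, RLTR9A, RLTR9B, RLTR17B_Mm and RLTR17C_Mm, turned to between -0.19 and -0.10 when libraries were divided by the mean over copies.

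QKO and TKO were compared directly, since the QKO clone was made from TKO cells. In naive cells 12 of 17 families were lower in QKO and 1 higher, against 37.7% and 30.4% of all families. With libraries divided by the mean over families 4 were lower and 0 higher. RLTR9A3A differed by -0.53 ± 0.04, RLTR9B2 by -0.40 ± 0.06, RLTR9C by -0.39 ± 0.04, RLTR9E by -0.37 ± 0.06 and RLTR9D by -0.32 ± 0.05. RLTR17B_Mm was the only family higher, by 0.06 ± 0.02, and it turned to -0.08 when libraries were divided by the mean over copies. In naive cells RLTR9A3A was lower in LBRKO than in WT, by -0.60, and lower in QKO than in TKO, by -0.53. In EpiLCs QKO and TKO differed over RLTR9A3A by -0.13 ± 0.04, which did not pass the test. Other repeat families lower in both naive comparisons are given further on.

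In EpiLCs no family of the 17 was called higher in any mutant on the relative scale, while dividing by the mean over families called 2 higher and 0 lower in LBRKO. In LBRKO 5 were lower, RLTR9A3A, RLTR9F, RLTR9C, RLTR9E and RLTR9A3B, against 28.7% of all families lower and 18.7% higher, so that their share was near that of all families. The count was 3 without EpiLC WT replicate 1 or EpiLC LBRKO replicate 2, and 8 without naive TKO replicate 2. RLTR9A3A held 1.74, 1.56 and 1.64 in WT and 1.29, 1.26 and 1.30 in LBRKO, a log2 change of -0.34 ± 0.04 (limma adjusted p = 2.11e-06). Dividing by the mean over families shifted the median family by 0.23 and turned RLTR9A3B, RLTR9C, RLTR9E and RLTR9F to between 0.02 and 0.13.

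In EpiLC TKO 12 of 17 families were lower, against 18.2% of all families lower and 14.4% higher. RLTR9E, at 1.31, 1.29 and 1.20 against 1.49, 1.38 and 1.50 in WT, changed by -0.19 ± 0.06 (limma adjusted p = 0.0250). RLTR9A2 changed by -0.24 ± 0.04 and RLTR9A3A by -0.20 ± 0.04. The calls became 5 without EpiLC WT replicate 1, 7 without EpiLC WT replicate 3, 7 without EpiLC TKO replicate 3, 1 with the median over copies and 0 when libraries were divided by the mean over families. In EpiLC QKO 13 were lower, against 26.5% lower and 22.1% higher, led by RLTR9A3A at -0.33 ± 0.04 and RLTR9A3B at -0.28 ± 0.03, and 8 were called without EpiLC WT replicate 1. These calls became 0 when libraries were divided by the mean over families and 4 with the median over copies. EpiLC QKO and TKO differed in 0 of 17 families by limma and in 0 of all 1225 families, also by edgeR. Of the 17, 4 had an unadjusted p under 0.05 in limma, and the share of all families at that level is not given here. The largest difference among the 17 was -0.13.

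The 3 comparisons with WT at a stage share the same WT libraries, so their values are set side by side without a test of their likeness. For RLTR9E the changes of LBRKO, TKO and QKO were -0.25, 0.41 and 0.03 in naive cells and -0.17, -0.19 and -0.22 in EpiLCs. For RLTR9A3A they were -0.60, 0.02 and -0.51 in naive cells and -0.34, -0.20 and -0.33 in EpiLCs. The difference between stages was tested as an interaction. For TKO it was called for 14 of the 17 families, all lower in EpiLCs, against 16.2% of all families that were lower and 2.04% that were higher, and RLTR9E, at -0.59 ± 0.09, had the 5th lowest of 1225. For LBRKO 7 families differed, all less reduced in EpiLCs, against 14.1% of all families higher and 12.5% lower. Dividing by the mean over families ended all 14 calls in TKO and all 7 in LBRKO, and the median over copies left 2 and 0. With libraries divided by the mean over copies 9 were called in TKO, all lower, and 13 in LBRKO, all higher. The 7 became 3 without EpiLC WT replicate 2 or EpiLC LBRKO replicate 1. For QKO 3 were higher and 5 lower, against 24.5% and 29.2%. Dividing by the mean over families called 4 higher and 0 lower there, and by the mean over copies 9 higher and 0 lower. The median over copies left 1 call, and the count was 5 without naive QKO replicate 1.

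RLTR17 held relative LAP2B of 1.39, 1.38 and 1.35 in naive WT and 1.48, 1.42 and 1.48 in naive TKO. This was a narrow gap without overlap (log2 change 0.08 ± 0.02), and it turned to -0.03 and -0.20 when libraries were divided by the mean over copies and over families. RLTR17B_Mm held 0.792, 0.806 and 0.814 in naive WT, 0.797, 0.803 and 0.791 in TKO and 0.822, 0.855 and 0.822 in QKO.

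RLTR17D_Mm, whose LMNB1 ratio over IGG was among the highest of the 17, held 1.20, 1.28 and 1.19 in naive WT and 0.919, 0.961 and 0.876 in naive QKO, without overlap. Its log2 change was -0.38 ± 0.04 (limma adjusted p = 2.14e-07). RLTR9A4, the smallest family with 32 copies, held 1.15, 1.12 and 1.15 in naive WT, 0.841, 0.821 and 1.00 in TKO and 0.774, 0.827 and 0.831 in QKO, so that both mutants lay below WT. RLTR9B2 held 1.47, 1.44 and 1.46 in naive WT, 1.10, 1.10 and 1.18 in LBRKO and 1.83, 1.58 and 1.88 in TKO, below WT in LBRKO and above it in TKO.

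On the spike-in scale nearly all families held less LAP2B in naive TKO and in QKO than in WT. RLTR9E held 1.16, 1.72 and 1.24 in naive WT, 0.708, 0.959 and 0.808 in TKO and 0.397, 0.290 and 0.369 in QKO. All TKO and QKO libraries lay below all WT libraries. The log2 change was -0.69 ± 0.22 in TKO and -1.81 ± 0.22 in QKO (limma adjusted p = 0.00161 and 2.07e-16). The spike-in factor of a library moves all its families together. The limma fit pools the spread over families as if they were independent, so p-values and calls on this scale are too strong. In naive TKO and in naive QKO all 17 families were lower, as were 99.4% and 99.7% of all families, with medians of -0.95 and -1.90 beside -1.02 and -1.75 over all families. RLTR9E had the smallest loss of the 17 in naive TKO on this scale and RLTR9A4 the largest, at -1.36.

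In LBRKO the spike-in scale called 1 of 17 families lower in naive cells, RLTR9A3A at -0.78 ± 0.22, against 9.71% of all families lower and 0.327% higher. The count was 0 without naive WT replicate 2 or naive LBRKO replicate 1 or 2, 5 without naive WT replicate 1 or EpiLC TKO replicate 1, and 11 with the median over copies. This scale called 0 of 17 in EpiLC LBRKO by limma, where 0% of all families were called lower and 0 of the 17 had an unadjusted p under 0.05. In EpiLCs 11 of 17 were lower in TKO, against 15.8%, and 17 of 17 in QKO, against 99.9%. The libraries lay apart from WT without overlap in 0 of the 17 families in EpiLC TKO and in all 17 in EpiLC QKO. The share of all families without overlap is not given here, and a library's spike-in factor moves all its families together. From naive to EpiLC WT 0 of 17 were called on this scale by limma, against 0.163% lower. Here 3 were at an unadjusted p under 0.05, with RLTR9D at -0.65 ± 0.22. Shares of all families at an unadjusted p under 0.05 are not given for this scale. The 11 EpiLC TKO calls ranged from 0 to 17 when single libraries were left out and were 0 when the spike-in factor was applied to recovered reads and with a replicate block.

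Among single copies, 56580 of the 68818 passed a filter that left out the lowest 0.1 of all copies of the table by mean, and 7415 of these were not RLTR17B_Mm. In naive LBRKO 5085 copies were higher and 4213 lower, 8.99% and 7.45% of those tested, against 14.3% and 8.01% of all copies. Without RLTR17B_Mm 615 were higher and 1353 lower, 8.29% and 18.2%. Of 212 RLTR9A3A copies tested, 74 were lower and 9 higher, and of 1159 RLTR9E copies 250 were lower and 84 higher. In naive TKO 2953 were higher and 1101 lower, 5.22% and 1.95% of those tested, against 7.77% and 1.79% of all copies. Without RLTR17B_Mm 639 were higher and 144 lower, 8.62% and 1.94%. RLTR9E had 176 copies higher and 14 lower in TKO, RLTR9D 86 and 11 of 696, and RLTR9D2 33 and 0 of 184. These shares, 15.2%, 12.4% and 17.9% higher, lay above the background, and 68.1% of RLTR9E copies had a change above 0.

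In naive QKO 10267 copies were higher and 10673 lower, 18.1% and 18.9% of those tested, against 25.3% and 17.9% of all copies. Without RLTR17B_Mm 1210 were higher and 2079 lower, 16.3% and 28.0%. The spread within a family was wide there. For RLTR9D2 the 10th and 90th percentiles of the log2 change were -1.58 and 2.06, around a median of -0.35, so that the family mean of 0.10 joined 46 copies called higher and 56 called lower. QKO against TKO gave 3568 higher and 3743 lower in naive cells, 6.31% and 6.62%, against 10.1% and 6.55%. Without RLTR17B_Mm 468 were higher and 1323 lower, 6.31% and 17.8%. In EpiLCs far fewer copies passed. LBRKO had 513 higher and 296 lower, 0.907% and 0.523%, against 1.57% and 0.634%. Without RLTR17B_Mm it had 123 and 153, 1.66% and 2.06%. TKO had 16 and 28, 0.0283% and 0.0495%, against 0.0532% and 0.0339%, and without RLTR17B_Mm 6 and 13. QKO had 525 and 375, 0.928% and 0.663%, against 1.59% and 0.51%. Without RLTR17B_Mm it had 107 and 161, 1.44% and 2.17%. QKO against TKO had 1 and 0, against 0.00144% and 2.93e-05%.

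From naive to EpiLC WT 619 copies rose and 325 fell, 1.09% and 0.574%, against 1.63% and 0.341%. Without RLTR17B_Mm 77 rose and 212 fell, 1.04% and 2.86%. The falls gathered in the families named above. RLTR9D had 76 copies lower and 3 higher, RLTR9E 73 and 6, and RLTR9D2 16 and 2. These were 10.9%, 6.30% and 8.70% of the copies tested. Counts of single copies depended on single libraries. Naive LBRKO calls went from 9298 to 4952 without naive WT replicate 2, 6159 without naive LBRKO replicate 2 and 5787 without naive LBRKO replicate 3. Naive TKO calls went from 4054 to 1785 without naive WT replicate 2 and 2609 without naive TKO replicate 2. From naive to EpiLC WT a pseudocount equal to the median gave 168 higher and 306 lower.

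For each comparison the copies with the strongest change whose groups did not overlap are named, with their recovered reads in replicates 1, 2 and 3. RLTR9E_dup278, on chromosome 4, had 128, 52 and 66 reads of LAP2B in naive WT and 12, 11 and 10 in EpiLC WT. Its log2 change was -2.60 ± 0.38 (limma adjusted p = 0.000169). LMNB1 over the same bins went from 86, 121 and 86 reads to 24, 25 and 26, while IGG had 14, 47 and 34 reads in naive cells and 15, 7 and 16 in EpiLCs. RLTR9E_dup357, on chromosome 5, had 38, 30 and 34 reads in EpiLC WT and 6, 4 and 0 in EpiLC QKO. It was lower than WT in every mutant at both stages. Naive WT had 41, 30 and 38 reads, LBRKO 12, 10 and 14, TKO 6, 8 and 2 and QKO 6, 2 and 2. EpiLC LBRKO had 14, 16 and 10 and EpiLC TKO 9, 8 and 4.

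RLTR9D2_dup122 had 34, 26 and 16 reads in naive WT and 2, 0 and 0 in naive LBRKO, while naive TKO had 127, 63 and 105. RLTR9B_dup68, on chromosome 6, went the other way, from 9, 2 and 2 reads in naive WT to 91, 26 and 67 in naive LBRKO. Part of the WT cells carry an extra chromosome 6, and the copy number behind this value was not tested. IGG over it in naive WT was 16, 45 and 24, above LAP2B. RLTR9B2_dup86, on chromosome X, had 32, 38 and 31 reads in EpiLC WT and 8, 4 and 4 in EpiLC LBRKO. Of the RLTR17B_Mm copies named by the rule, RLTR17B_Mm_dup24834 on chromosome 7 rose in naive LBRKO from 6, 0 and 5 reads to 56, 40 and 47. RLTR17B_Mm_dup9855 on chromosome 3 fell there from 29, 34 and 38 reads to 3, 2 and 2. Over RLTR17B_Mm_dup24834, IGG in naive WT was 4, 24 and 8. In EpiLC LBRKO RLTR17B_Mm_dup23038 had 93, 136 and 113 reads against 23, 27 and 4 in WT, RLTR17B_Mm_dup16091 had 46, 25 and 41 against 6, 15 and 0, and RLTR17B_Mm_dup384 had 6, 0 and 6 against 29, 36 and 11. IGG in EpiLC WT was 15, 6 and 40 over RLTR17B_Mm_dup23038 and 10, 11 and 28 over RLTR17B_Mm_dup16091. RLTR17B_Mm_dup59604 and RLTR17B_Mm_dup59605, which share all their reads, had 0, 0 and 8 in EpiLC TKO and 16, 32 and 6 in WT, and did not overlap once divided by the median family.

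From naive to EpiLC WT RLTR17B_Mm_dup19445 rose from 2, 0 and 2 reads to 14, 22 and 14, and RLTR17B_Mm_dup20495 from 4, 0 and 0 to 7, 22 and 14. In naive cells IGG over the former was 2, 26 and 18 and over the latter 4, 30 and 16, mostly above LAP2B. RLTR17B_Mm_dup2190 fell from 156, 90 and 100 reads to 20, 34 and 6.

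Some copies had at most 3 reads in every library of a line. RLTR17B_Mm_dup35144 and RLTR17B_Mm_dup35145, which share all their reads, had 0 to 3 reads in every WT and LBRKO library of any antibody. They had 86, 47 and 66 reads in naive TKO and 90, 125 and 55 in naive QKO, and 81, 107 and 141 in EpiLC TKO and 77, 95 and 82 in EpiLC QKO. RLTR9A2_dup148, on chromosome 11, was the reverse. It had 47, 39 and 39 reads in naive WT and 0 or 1 in every TKO and QKO library. IGG over it in naive WT was 10, 32 and 14. RLTR17B_Mm_dup27907, on chromosome 8, had 35, 32 and 23 reads in naive WT and 0 to 2 in every TKO and QKO library.

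Counted by a rule set after these values were seen (at most 2 reads in each LAP2B library of one pair of lines and a mean of at least 20 in the other), 1 copy of the 68818 was empty in TKO and QKO, and 58 of all copies. A further 2 were empty in WT and LBRKO, and 48 of all copies. The TKO and QKO cells come from another line than WT and LBRKO, so a copy missing from the genome of a line and a copy without LAP2B cannot be told apart from these counts alone.

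The placed copies named here were chosen after their values were seen. RLTR9E_dup231, in the bin at chr3:91918001-91919000, held relative LAP2B of 4.05 ± 0.72 (SD, n = 3) in naive WT, and 2.11, 4.17 and 1.52 in naive cells of the LBRKO, TKO and QKO lines. EpiLC WT held 1.27. Its fall to EpiLCs was -1.60 (limma adjusted p = 0.00411). RLTR9D_dup667, whose sequence is printed above, held 0.57 in naive WT, 2.02 in TKO and 8.31 in QKO (log2 change 3.69 in QKO). RLTR9E_dup510 went from 4.77 in naive WT to 1.18 in QKO (-2.05). RLTR17_dup112 and RLTR17_dup1249 moved by 0.77 and 0.85 in naive QKO, and neither passed the test.

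Copies were then ordered by WT LMNB1 over IGG of the same stage and parted into 4 classes of equal size. LMNB1 libraries are separate from the LAP2B libraries tested. Among copies without RLTR17B_Mm, the 2110 copies of the LMNB1-poorest class had a median LMNB1 to IGG ratio of 0.542 and those of the richest class one of 1.89. In naive cells the median log2 change of LAP2B went down with LMNB1 in all 3 mutants. From poorest to richest the LBRKO medians were 0.32, -0.34, -0.65 and -0.74. The TKO medians were 0.58, 0.12, -0.05 and -0.22, and those of QKO were 0.95, -0.28, -0.75 and -1.04. Class medians over all copies of the table were not computed, and the ratios per library are given beside those of all copies.

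For RLTR9D, RLTR9D2 and RLTR9E together, the families with the largest naive TKO increase of the 17 on the relative scale, the TKO medians were 0.70, 0.35, 0.22 and 0.01 from poorest to richest. In QKO the same classes were at 1.12, -0.07, -0.62 and -1.01, so that the poorest and richest copies parted by more than in TKO.

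**Figure D5:**
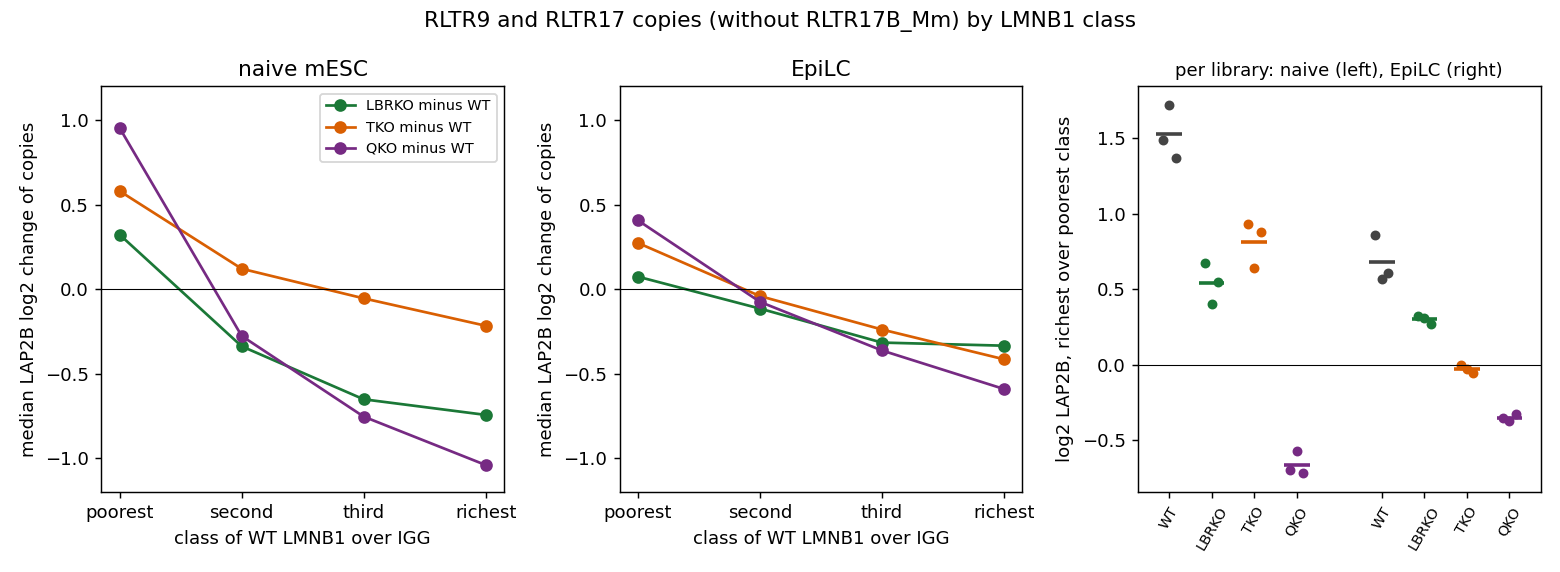
Median log2 change of LAP2B against WT over 4 classes of RLTR9 and RLTR17 copies without RLTR17B_Mm, ordered by WT LMNB1 over IGG, in naive mESCs and EpiLCs, and the log2 ratio of the richest to the poorest class in each LAP2B library. In naive cells the ratio is 1.37 to 1.72 in WT libraries and -0.72 to -0.58 in QKO libraries.

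The same was read from each library as the log2 ratio of the mean LAP2B of the richest class to that of the poorest. Over all 17 families the naive WT libraries were at 1.08, 1.48 and 0.95. Those of LBRKO were at 0.24, -0.23 and -0.04, those of TKO at 0.38, -0.02 and 0.44, and those of QKO at -1.18, -0.96 and -1.17. The WT libraries lay above those of all 3 mutants, and the QKO libraries below. For the genotypes in this order, all copies of the table gave means of 1.10, -0.06, 0.06 and -1.33, beside 1.17, -0.01, 0.27 and -1.10 for RLTR9 and RLTR17. Without RLTR17B_Mm the means were 1.53, 0.54, 0.82 and -0.66, and for RLTR9D, RLTR9D2 and RLTR9E 1.86, 0.90, 1.15 and -0.55. In EpiLCs the ratio over all 17 families was 0.32 ± 0.22 for WT and -0.09 ± 0.07 for LBRKO libraries, and the TKO and QKO libraries were lower, at -0.49 ± 0.05 and -0.71 ± 0.02 (SD, n = 3). All copies of the table gave 0.30, -0.11, -0.46 and -0.68 there. With classes from LMNB1 of the other stage EpiLC LBRKO turned to 0.00518. The study itself did not use LAP2B to mark lamina contact in EpiLCs.

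The sign of these ratios rested on the use of IGG. With classes made from LMNB1 alone, naive QKO stood at 0.209 and naive WT at 1.93, and EpiLC WT, LBRKO, TKO and QKO at 1.35, 1.18, 0.853 and 0.743. The order of WT, TKO and QKO in naive cells was the same with both.

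Other repeat families were set beside RLTR9 and RLTR17, as counts and medians with no test between groups of families, on the scale of the median family. The shift of -0.27 from dividing by the mean over families exceeds each of the TKO medians given here. In naive TKO 9 of 23 RLTR13 families, 11 of 16 IAP LTR families and 5 of 5 ETn/MusD families were higher and none lower, while 20 of 25 L1Md families (young LINE-1 elements) were lower. Of the 268 ERVK families other than RLTR9 and RLTR17, 133 were higher and 14 lower, with a median of 0.09 beside 0.11 for the 17. In naive LBRKO 16 of 16 IAP and 25 of 25 L1Md families were lower, with medians of -0.40 and -0.54. RLTR9 and RLTR17 were at -0.25 there and other ERVK families at -0.17. In naive QKO against TKO 14 of 16 IAP, 19 of 23 RLTR13 and 25 of 25 L1Md families were lower, and 1 RLTR13 family was higher. Their medians were -0.35, -0.30 and -0.47, beside -0.27 for RLTR9 and RLTR17. Of the 268 other ERVK families 152 were lower and 68 higher in that comparison. From naive to EpiLC WT 14 of 23 RLTR13 families fell, with a median of -0.20, beside 2 of 16 IAP and 0 of 5 ETn/MusD families. Of 25 L1Md families 8 fell and 0 rose, and of the 268 other ERVK families 66 fell and 20 rose. The share of all families that fell was 13.0%. Falls in EpiLCs and gains in TKO were thus also measured in ERVK families other than RLTR9, and falls in EpiLCs in L1Md families as well.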

How the data were processed

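CUT&RUN libraries of LAP2B (24), LMNB1 (6) and IGG (6) were analysed in 12 groups of 3. The authors aligned reads with Bowtie2 2.3.5.1 to mm39 and, for the spike-in, sacCer3, used SAMtools 1.10 and deepTools, and deposited a signal per copy of a transposable element, namely RPKM scaled by yeast reads and summed over bins. The authors' methods name wider bins, but the deposited values fit bins of 1 kb. At least 99.9997% of values lay within 0.05 of a whole multiple of what 1 read is worth, so reads were recovered.

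From these values, copies were averaged per family, each library was divided by its median family (relative scale) or kept as deposited (spike-in scale), and log2(value + 0.1 times the median) was tested with limma 3.58.1 in R 4.3.3, with the 24 LAP2B libraries in 1 model of 8 groups and Benjamini-Hochberg adjustment over all 1225 families, or all copies tested, at 0.05. The fold changes are on this scale with its pseudocount and understate low values. LMNB1 and IGG were fitted apart. The lowest 0.1 of copies by mean was left out of tests of copies. The difference between stages was a contrast in the same model. Reads were tested with edgeR 4.0.16 as an alternative, added after the data were seen, as was leaving out chromosomes 6 and 8. Named copies were the 2 that rose and the 2 that fell most among those called whose groups did not overlap. The members and lists were chosen with earlier results of these data known. Scripts were tested on simulated data. Sequences were matched with BLAST 2.17.0 and read from GRCm39, and promoters came from RefSeq. Some sequences are not reported here.

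By the correlation of same-number deviations from the group means, replicate numbers paired the samples in 1 of 6 comparisons, naive QKO against WT, where all 3 pairs were over 0.1 (0.122 to 0.205) and the replicate block changed no count of families called. In the other 5 they did not. Counting error is the only error that depth per library describes, and no karyotype correction was made.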

Additional observations from a re-analysis of the deposited data

Results flagged for a closer look

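The change of a family from WT differed between naive cells and EpiLCs, by the limma test of the difference itself, in 29 cases. Each value is the EpiLC change minus the naive change on the log2 relative scale, and no explanation is offered.

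For TKO 14 of 17 families differed, all lower in EpiLCs, against 16.2% of all 1225 families lower and 2.04% higher. With libraries divided by the mean over families 0 of the 17 were called, and with the median over copies 2. RLTR9E differed by -0.59 (adjusted p = 0.000324), RLTR9A2 by -0.45, RLTR9D by -0.44, RLTR9D2 by -0.43 and RLTR9B2 by -0.42. RLTR9B differed by -0.38, RLTR9A by -0.28, and RLTR9A3, RLTR9A3A, RLTR9F, RLTR9C and RLTR9A3B by -0.22, -0.22, -0.21, -0.20 and -0.20. RLTR17 differed by -0.15 and RLTR17C_Mm by -0.13 (adjusted p = 0.0268).

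For LBRKO 14.1% of all families were higher and 12.5% lower. The 7 of 17 called became 0 with the mean over families as divisor or with the median over copies, and 3 without EpiLC WT replicate 2 or EpiLC LBRKO replicate 1. The 7 differences were positive, at 0.27 for RLTR9A3A (adjusted p = 0.00180), 0.25 for RLTR9A3B, 0.22 for both RLTR9A2 and RLTR9D2, 0.19 for both RLTR9C and RLTR17D_Mm, and 0.16 for RLTR9A3.

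For QKO 3 of 17 families were higher (17.6%) and 5 lower (29.4%), against 24.5% and 29.2% of all families, so their shares were below and about the same as those of all families. RLTR9A4, RLTR9A3A and RLTR17D_Mm differed by 0.22, 0.18 and 0.17. RLTR9B, RLTR9E, RLTR9A, RLTR17C_Mm and RLTR17 differed by -0.28, -0.25, -0.22, -0.13 and -0.083. As given above, all lower calls were lost when libraries were divided by the mean over families or over copies. Most calls were lost with the median over copies.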

How the results depend on the processing

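Counts below are of RLTR9 and RLTR17 families called, with the value in the report in brackets. Limits: depth gave 8 to 29 reads at the median copy, single copies are therefore uncertain, IGG was not mapped in the mutants, and counts of copies moved most with single libraries. Scaling by the mean over families moved most results, and the cause was not tested.

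Dividing by the mean over copies called 13 (7) from naive to EpiLC WT, 13 (7) and 9 (14) for the difference between stages in LBRKO and TKO, and 1 (0) for LMNB1. It turned RLTR17, RLTR9A3A and RLTR9A3B in naive TKO to -0.031, -0.10 and -0.10. In naive QKO it turned RLTR17 and RLTR9E to -0.22, RLTR17B_Mm to -0.19, RLTR9D2 to -0.16, RLTR17C_Mm to -0.15, RLTR9A to -0.11 and RLTR9B to -0.10. It turned RLTR17B_Mm and RLTR9A in naive QKO against TKO to -0.076 and -0.14. For the difference between stages in QKO it turned RLTR17, RLTR17B_Mm, RLTR17C_Mm, RLTR9A3, RLTR9A3B and RLTR9F to 0.11, 0.14, 0.060, 0.13, 0.17 and 0.15. RLTR17B_Mm over IGG became 1.04 for LMNB1 at both stages and 1.00 for LAP2B in EpiLCs.

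Dividing by the mean over families called 2 (15) in naive LBRKO, 7 (12) in naive TKO, all lower, 4 (13) in naive QKO against TKO, 2 (5), 0 (12) and 0 (13) in EpiLC LBRKO, where the 2 were higher, TKO and QKO, 17 (7) from naive to EpiLC WT, 17 (0) for LMNB1, and 0 (7), 0 (14) and 4 (8) for the difference between stages in LBRKO, TKO and QKO. It turned RLTR17, RLTR17C_Mm and RLTR9A in naive LBRKO to 0.058, 0.023 and 0.011. In naive TKO it turned RLTR17 to -0.20, RLTR17C_Mm to -0.16, RLTR9A to -0.14, RLTR9A2 to -0.071, RLTR9A3A and RLTR9A3B to -0.27, RLTR9B to -0.033, RLTR9B2 to -0.025, RLTR9C to -0.23 and RLTR9F to -0.16. In naive QKO RLTR17B_Mm, RLTR17C_Mm, RLTR9A and RLTR9B became -0.13, -0.081, -0.041 and -0.037, and against TKO RLTR17 became 0.038. In EpiLC LBRKO RLTR17B_Mm, RLTR9A3B, RLTR9C, RLTR9E and RLTR9F became 0.20, 0.13, 0.019, 0.069 and 0.019. From naive to EpiLC WT RLTR17B_Mm and RLTR9A became -0.32 and -0.33, and for LMNB1 RLTR17C_Mm, RLTR9A, RLTR9A3A and RLTR9F became -0.28, -0.25, -0.30 and -0.28. For the difference between stages RLTR17 and RLTR17C_Mm became 0.025 and 0.044 in TKO and 0.14 and 0.091 in QKO.

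The median over copies called 6 (12) in naive TKO, 1 (12) and 4 (13) in EpiLC TKO and QKO, 3 (7) from naive to EpiLC WT, 0 (7), 2 (14) and 1 (8) for the difference between stages in LBRKO, TKO and QKO, and on the spike-in scale 11 (1) in naive LBRKO and 6 (11) in EpiLC TKO. It turned RLTR17 and RLTR9B in naive QKO to -0.16 and -0.070, RLTR9A in naive QKO against TKO to -0.16, and RLTR17 for the difference between stages in QKO to 0.12. In EpiLCs RLTR17C_Mm became 0.998 for LAP2B over IGG and RLTR9B2 1.00 for LMNB1 over IGG.

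With edgeR LMNB1 had 2 (0). With families of at least 100 copies LMNB1 had 1 (0), IGG 2 (0) and naive LBRKO on the spike-in scale 2 (1). A pseudocount equal to the median gave 4 (1) there. The replicate block gave 0 (11) in EpiLC TKO on the spike-in scale, and moved no other count of families by over 1.5 times. The spike-in factor applied to reads gave 0 (11) there and 1 (0) from naive to EpiLC WT. Without chromosomes 6 and 8 there were 8 (5) in EpiLC LBRKO, and on the spike-in scale 4 (1) in naive LBRKO and 6 (11) in EpiLC TKO.

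For copies, no filter gave 69 (44) in EpiLC TKO and 0 (1) in EpiLC QKO against TKO. A pseudocount equal to the median gave 1527 (809), 131 (44) and 1795 (900) in EpiLC LBRKO, TKO and QKO, 2 (1) in EpiLC QKO against TKO and 474 (944) from naive to EpiLC WT.

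The log2 ratio of LMNB1-rich to LMNB1-poor copies, from class medians, was -0.978 in naive QKO, -0.200 in EpiLC LBRKO and -0.561 in EpiLC TKO. With classes from LMNB1 alone naive WT, LBRKO, TKO and QKO were at 1.93, 1.14, 1.26 and 0.209, and EpiLCs at 1.35, 1.18, 0.853 and 0.743. With classes from the other stage EpiLC LBRKO was at 0.00518 and EpiLC QKO at -0.667.

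Leaving out single libraries gave 3 to 8 (5) in EpiLC LBRKO (3 without EpiLC WT replicate 1 or EpiLC LBRKO replicate 2), 5 to 14 (12) in EpiLC TKO, 8 to 13 (13) in EpiLC QKO, 3 to 12 (7) from naive to EpiLC WT, 0 to 1 (0) for LMNB1 (1 without naive LMNB1 replicate 2), 3 to 8 (7) and 5 to 11 (8) for the difference between stages in LBRKO and QKO (5 without naive QKO replicate 1). On the spike-in scale it gave 0 to 5 (1) in naive LBRKO (5 without naive WT replicate 1) and 0 to 17 (11) in EpiLC TKO (17 without naive or EpiLC WT replicate 2, 4 without naive WT replicate 3). Copies called ranged from 4952 to 10375 (9298) in naive LBRKO, 1785 to 4139 (4054) in naive TKO, 4378 to 7612 (7311) in naive QKO against TKO (4378 without naive QKO replicate 1, 4496 without replicate 3), 246 to 1010 (809) in EpiLC LBRKO (246 without EpiLC LBRKO replicate 2), 10 to 183 (44) in EpiLC TKO (183 without EpiLC WT replicate 2, 10 without EpiLC TKO replicate 1), 178 to 1203 (900) in EpiLC QKO (178 without EpiLC QKO replicate 1), 0 to 1 (1) in EpiLC QKO against TKO and 345 to 1203 (944) from naive to EpiLC WT (345 without EpiLC WT replicate 3). The LMNB1 class ratio ranged from -0.737 to -0.623 in EpiLC QKO and from -0.518 to -0.411 in EpiLC TKO.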
